A study of Mus musculus with 8 samples.

Results

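The 6 genes described here are Il6, Lif and Osm, which encode ligands of the interleukin-6 (IL-6) family, and Il6ra, Osmr and Il6st, which encode receptors for them. They were chosen by name from the 55376 genes of the deposited count table, and all 6 were present and had enough reads to be tested among 14382 genes. The cells were mouse bone marrow dendritic cells, stimulated overnight with 1 of 2 heat-inactivated bacteria, P. heparinolytica (PH, 3 samples) or P. melaninogenica (PM, 3 samples). The labels name the samples by the ids 1, 3 and 4, each present in both groups, and give no mouse strain, age or genotype. The series comes from a study of the microbiome and of PD-1 and PD-L1 blockade in multiple myeloma. The labels do not say whether an id stands for an animal or a culture, so p-values measure only the spread between these samples, which may be technical. The series holds no untreated cells, so each difference is PM against PH and says nothing of either bacterium against rest.

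IL-6 binds its own receptor chain, Il6ra, and the pair then recruits gp130, the signalling chain encoded by Il6st. Leukaemia inhibitory factor (LIF, from Lif) and oncostatin M (OSM, from Osm) also signal through gp130, OSM mainly together with Osmr in the mouse and LIF together with Lifr. gp130 activates Janus kinases and the transcription factor STAT3, and STAT3 induces Socs3, which shuts the receptor off. Dendritic cells make IL-6 when pattern recognition receptors detect microbial products, and IL-6 takes part in the differentiation of Th17 cells.

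The sequence upstream of Il6 is shown because Il6 was the member that differed between the bacteria, and that of Lif is shown beside it as a ligand gene that did not pass the test. RefSeq promoters (GRCm38.p6) matched 5 of the 6 members, Il6, Il6ra, Il6st, Lif and Osmr. The 250 bases before the RefSeq start were searched on both strands for 6 motifs, and capitals mark each match. The first sequence is chr5:30012864-30013113 and the second is chr11:4257318-4257567, both on the plus strand.
Il6: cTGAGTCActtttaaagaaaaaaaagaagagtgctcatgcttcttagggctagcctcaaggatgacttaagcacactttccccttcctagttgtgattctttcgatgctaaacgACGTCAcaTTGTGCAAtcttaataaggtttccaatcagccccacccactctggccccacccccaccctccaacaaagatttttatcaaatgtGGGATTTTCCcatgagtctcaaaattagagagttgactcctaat
Lif: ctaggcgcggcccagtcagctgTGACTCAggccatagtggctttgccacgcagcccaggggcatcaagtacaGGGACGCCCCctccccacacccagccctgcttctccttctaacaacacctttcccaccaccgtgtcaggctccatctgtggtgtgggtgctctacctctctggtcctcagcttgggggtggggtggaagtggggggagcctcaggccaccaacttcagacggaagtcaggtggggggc

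The Il6 window held 4 matches, none of which overlapped another. Counted from the RefSeq start, with -1 as the base before it, these were an AP-1 motif (TGANTCA) at -249 to -243, a cyclic AMP response element core (TGACGT, on the minus strand) at -136 to -131, a C/EBP motif (TTGNGCAA) at -128 to -121 and the NF-kB consensus at -44 to -35. Among 32851 RefSeq windows of the same length, 6.75% held the AP-1 motif, 6.47% the cyclic AMP core, 2.61% the C/EBP motif and 7.25% the NF-kB consensus. The Lif window held the AP-1 motif at -228 to -222 and the NF-kB consensus at -178 to -169, where it matched on both strands. The RefSeq start of Lif lies 11 bases inside the gene as the count table gives it, so the last 11 bases of its window belong to that gene model, while for Il6 both starts are the same. Neither window held the STAT motif (TTCNNNGAA, 7.02% of windows) or the interferon response element (2.98%), and the windows of Il6ra, Il6st and Osmr held none of the 6. The whole Osmr window (6874314 to 6874563, minus strand) lies inside the gene as the count table gives it (6813577 to 6874969), so it is not upstream of that gene model. These are matches of letters and not measured binding sites.

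The 6 columns of counts stand for 8 libraries, and the columns of PH sample 3 and PM sample 1 each match 2 of them. In both cases the second library is labelled run 2, while all other libraries are labelled run 1. Levels are given as CPM, reads of a gene relative to the total reads of its library, with totals scaled by TMM, which corrects for differences in composition. Total counts ranged from 11624367 in PH sample 3 to 40233148 in PH sample 4, and PH sample 3 also stood apart in Gm42418, a predicted gene (4029 CPM against 878 to 1496 in the other samples). Of the dendritic cell markers, Itgax (133 to 178 CPM), Flt3 (44.2 to 61.2 CPM), Zbtb46 (59.4 to 84.4 CPM) and Cd74 (3313 to 4188 CPM) were present in every sample. Clec9a, a marker of cross-presenting dendritic cells, was at 0.328 to 0.572 CPM with PH and 0.866 to 1.43 CPM with PM (1.25 ± 0.32, adjusted p = 0.0974, or 0.00412 with the block), and its part in the results was not tested. Dpp4 and H2-Ab1, of the same list, went the other way in each id and passed with neither fit. Dpp4 was at 15.2 to 19.8 CPM with PH and 12.9 to 15.0 CPM with PM (-0.20 ± 0.12, adjusted p = 0.545 by edgeR). H2-Ab1 was at 743 to 891 CPM with PH and 732 to 790 CPM with PM (-0.11 ± 0.08, adjusted p = 0.646). Cd209a had 0 reads and Xcr1 had 43 reads in all 6 samples together. A gene passed at an adjusted p of 0.05 in edgeR's quasi-likelihood test, and 2.34% of all genes tested passed (1.64% lower and 0.702% higher with PM). In bulk samples, fewer cells that make a transcript and less transcript per cell cannot be told apart.

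Il6 was lower with PM. The gene lies on chromosome 5 (30013114 to 30019981, plus strand, GRCm38) and is protein-coding in GENCODE. Il6 was at 577 CPM in PH sample 1, 432 in PH sample 3 and 419 in PH sample 4, and at 318 CPM in PM sample 1, 288 in PM sample 3 and 294 in PM sample 4. The lowest PH sample was above the highest PM sample, and PH sample 1 was the highest of all. PH samples averaged 476 ± 87.7 CPM and PM samples 300 ± 15.7 CPM (SD, n = 3). The fitted log2 fold change was -0.67 ± 0.12 (SE, 95% interval -0.94 to -0.39) with adjusted p = 0.0245 by edgeR. This is a level 1.59-fold higher with PH than with PM. On the log2 scale PM minus PH came to -0.86 in id 1, -0.58 in id 3 and -0.51 in id 4. With the replicate block the log2 fold change was -0.65 ± 0.05 (adjusted p = 3.9e-10). The blocked call held without id 1 (-0.56, adjusted p = 3.5e-31), id 3 (-0.69, 6.11e-10) or id 4 (-0.72, 2.31e-26). Without id 1 the adjusted p was smaller than with all samples, although the fit held fewer samples and a smaller fold change. These p-values rest on a spread estimate shared between genes and do not measure replication. Without the block the call was lost without PM sample 3 (-0.64, adjusted p = 0.110) or PM sample 4 (-0.65, adjusted p = 0.122), while without PH sample 1 the log2 fold change was -0.51 (adjusted p = 0.0176), and without PH sample 3 it was -0.74 (adjusted p = 0.0489). Over all the fits without the block the adjusted p ranged from 1.34e-13, with no filter on low counts, to 0.122.

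Il6 was the only member that passed, 1 of 6 (16.7%), against 2.34% of all genes tested. With the sample id as a block in the fit, 3 of 6 members passed, against 15.3% of all genes tested (8.27% lower and 7% higher), and the added members were Osm and Il6st, both higher with PM. CPM of the groups did not overlap for 2 of 6 members, Il6 (lower) and Osm (higher), and this held for 19.4% of all genes tested (9.28% lower and 10.1% higher). The PM to PH difference had the same sign in all 3 ids for 4 of 6 members, against 45.9% of all genes (22% lower in each). Il6 was the member lower in each id, and Osm, Il6ra and Il6st were higher in each.

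**Figure D1:**
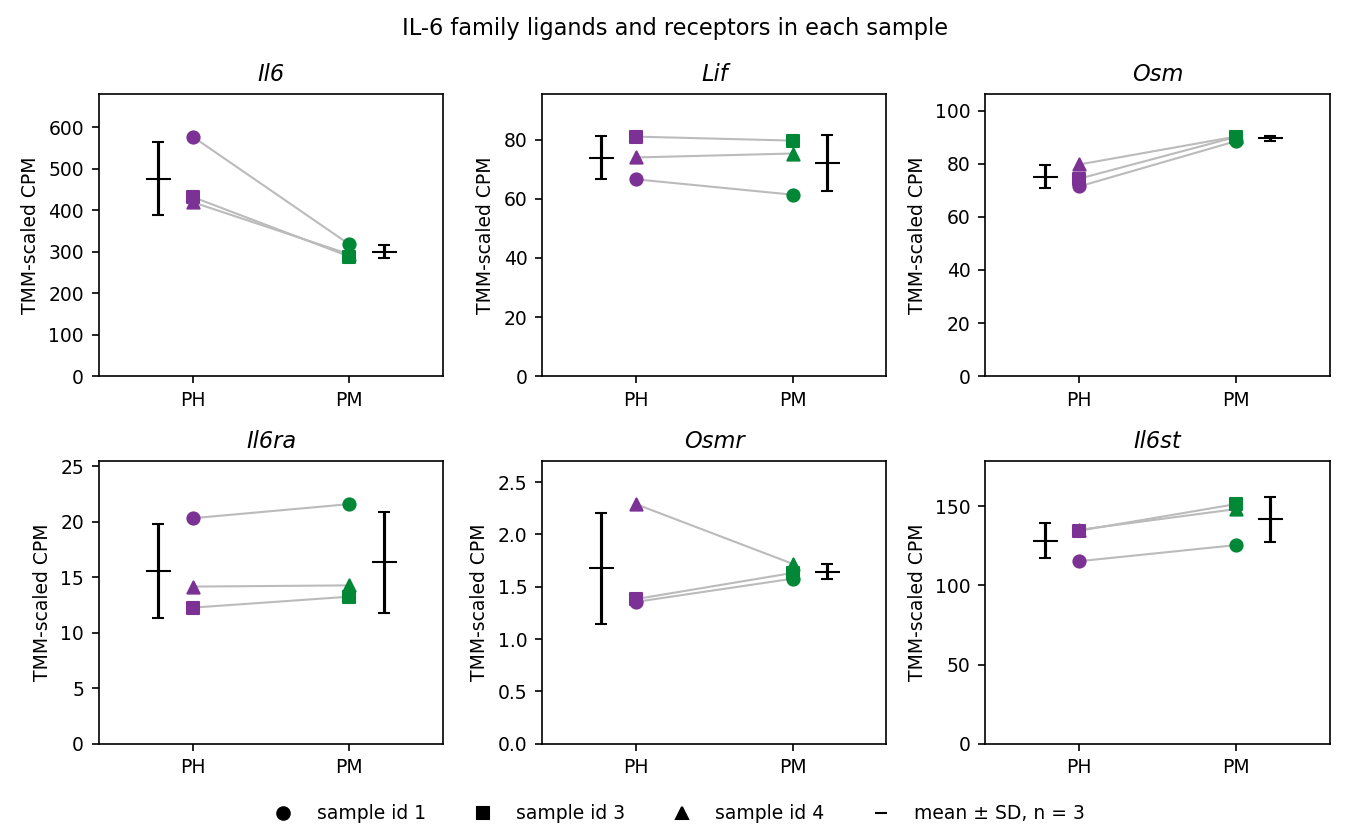
TMM-scaled CPM (y axis, from 0) of each member in the 3 PH and 3 PM samples (x axis). Marker shapes give the sample id, grey lines join samples of 1 id, and black bars are the mean ± SD of 3 samples. Il6 fell in each id from 419 to 577 CPM with PH to 288 to 318 CPM with PM, and Il6ra differed more between id 1 and the other ids than between the bacteria.

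Osm was at slightly higher levels with PM and did not pass without the block. OSM is a cytokine of activated myeloid and T cells. Its gene lies on chromosome 11 (4236420 to 4241026, plus strand), and its end is 16530 bases upstream of the start of Lif (4257557 to 4272514, plus strand). Osm was at 71.4, 74.4 and 79.7 CPM in PH samples 1, 3 and 4, and at 88.5, 90.1 and 90.2 CPM in PM samples 1, 3 and 4. All 3 PM samples were above all 3 PH samples, and the PM samples lay closer to each other. The log2 fold change was 0.25 ± 0.06 (SE, 95% interval 0.12 to 0.39) with adjusted p = 0.0771 by edgeR. With the replicate block it was 0.25 ± 0.05 and passed (adjusted p = 5.8e-04), and with the block and 1 id left out the adjusted p was 0.00101 to 0.0207. With no filter on low counts Osm passed without the block as well (adjusted p = 0.0493), and over the other fits without the block the adjusted p was 0.0508 to 0.261.

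Lif did not differ beyond the spread between samples. Lif was at 66.6, 81.1 and 74.0 CPM in PH samples 1, 3 and 4, and at 61.4, 79.7 and 75.4 CPM in PM samples 1, 3 and 4. The groups overlapped, and id 1 had the lowest sample in each. The log2 fold change was -0.03 ± 0.11 (SE), with a 95% interval of -0.27 to 0.21 and adjusted p = 0.945 by edgeR. With the block the adjusted p was 0.739. The interval leaves room for a change of that size in either direction. Of the 3 ligand genes, thus, Il6 was lower with PM, Osm had a positive fold change that passed with the block, and Lif passed with neither fit.

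Il6ra, the chain that binds IL-6, varied with the sample id and not detectably with the bacterium. It lies on chromosome 3 (89864059 to 89913196, minus strand), and 2.80% of its exon bases overlap Gm42809 on the other strand. Il6ra was at 20.3, 12.3 and 14.2 CPM in PH samples 1, 3 and 4, and at 21.6, 13.3 and 14.3 CPM in PM samples 1, 3 and 4. The samples of id 1 were the highest in both groups. The log2 fold change was 0.04 ± 0.22 (SE, 95% interval -0.46 to 0.55) with adjusted p = 0.962, or 0.06 ± 0.08 with adjusted p = 0.680 with the block. Within the ids PM minus PH was 0.09, 0.11 and 0.01 on the log2 scale.

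The sums of some marker lists followed the same ids. The summed level of 8 macrophage markers was 1532 and 1704 CPM in the PH and PM samples of id 1 and 1069 to 1242 CPM in the other 4 samples. For 8 B cell and plasma cell markers the sums were 56.0 and 61.1 CPM in id 1 and 31.2 to 34.2 CPM in the others. The 7 erythroid and megakaryocyte markers had sums of 79.4 and 90.0 CPM in id 1 and 53.7 to 61.2 CPM in the others. The sums of other lists were lowest in id 1. T cell sums were 26.9 and 24.1 CPM in id 1 and 34.7 to 41.1 CPM in the others. Stromal sums were 81.2 and 90.2 CPM against 116 to 170 CPM, and dendritic cell sums 4348 and 4448 CPM against 4944 to 5378 CPM. Cd74, at 3313 to 4188 CPM, made up most of the dendritic cell sum, and not every marker followed the sum of its list. Itgax was highest in id 1 in each group, at 165 CPM against 133 and 158 with PH and 178 CPM against 139 and 166 with PM. The stromal marker Col3a1 was highest in PM sample 1 (18.8 CPM). Between the bacteria 0 of the 7 macrophage markers tested passed by edgeR, of which 4 had an unadjusted p under the threshold. With the block Cd68 (0.45) and Mrc1 (0.69) rose and Fcgr1 (-0.84) fell, 42.9% against 15.3% of all genes tested. No marker of the macrophage, B cell and erythroid lists was at 0 in all samples, although C1qa had 11 reads in all. The part of these cells in the level of Il6ra was not tested.

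Osmr, the chain that pairs with gp130 to bind OSM, was near the lower end of what these libraries measure. It lies on chromosome 15 (6813577 to 6874969, minus strand). Osmr was at 1.35, 1.38 and 2.29 CPM in PH samples 1, 3 and 4, and at 1.58, 1.63 and 1.72 CPM in PM samples 1, 3 and 4. The PM samples lay inside the range of the PH samples, of which sample 4 was the highest. These levels rest on 16 to 92 reads per sample, and 16 reads have a counting error of 25.0%. The log2 fold change was -0.09 ± 0.25 (SE, 95% interval -0.65 to 0.47) with adjusted p = 0.923, and it was 0.27 (adjusted p = 0.831) without PH sample 4. The 95% interval leaves room for a change in either direction.

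Il6st, the gp130 chain shared by all 3 ligands, had a small positive fold change. It lies on chromosome 13 (112464070 to 112510086, plus strand). Il6st was at 115, 135 and 135 CPM in PH samples 1, 3 and 4, and at 125, 151 and 148 CPM in PM samples 1, 3 and 4. The groups overlapped because both samples of id 1 were low, and within each id the PM sample was higher. The log2 fold change was 0.14 ± 0.09 (SE, 95% interval -0.07 to 0.35) with adjusted p = 0.574, and 0.06 without PH sample 1. With the replicate block it was 0.14 ± 0.05 and passed at adjusted p = 0.0398, and the blocked call was lost without id 3 (adjusted p = 0.292) or id 4 (adjusted p = 0.199).

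**Figure D2:**
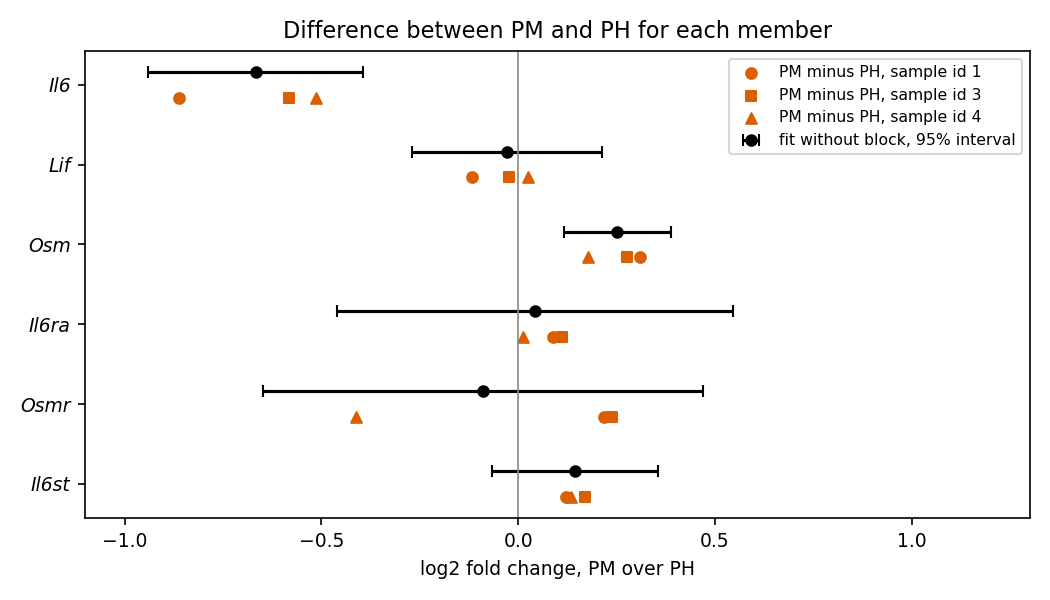
Log2 fold change of PM over PH (x axis) for each member (y axis). Black points are the edgeR fit without the block with 95% intervals, and orange markers are PM minus PH within each sample id. The interval of Il6 (-0.94 to -0.39) and that of Osm (0.12 to 0.39) do not reach 0, while those of the other 4 members do.

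Levels were compared between genes after division by exon length, as FPKM, the CPM per kilobase of exon. The order was the same in all 6 samples, Il6, Osm, Lif, Il6st, Il6ra and Osmr from high to low. Over the 6 samples Il6 was at 119 to 238 FPKM, Osm at 31.4 to 39.7, Lif at 15.2 to 20.0, Il6st at 10.5 to 13.8, Il6ra at 1.42 to 2.5 and Osmr at 0.247 to 0.417. No neighbours in this order overlapped, and as a ratio the narrowest gap was that of Lif and Il6st. By its mean, Il6 ranked 414 and Osmr 13128 of the 14382 genes tested. The 3 ligand genes were thus all above the 3 receptor genes per exon length in these stimulated cells. The divisor was all exon bases of a gene, 10973 for Il6st, 4051 for Lif and 2272 for Osm, and not the length of the transcript expressed. In CPM, without this division, Il6st (115 to 151) was above Osm (71.4 to 90.2) and Lif (61.4 to 81.1).

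**Figure D3:**
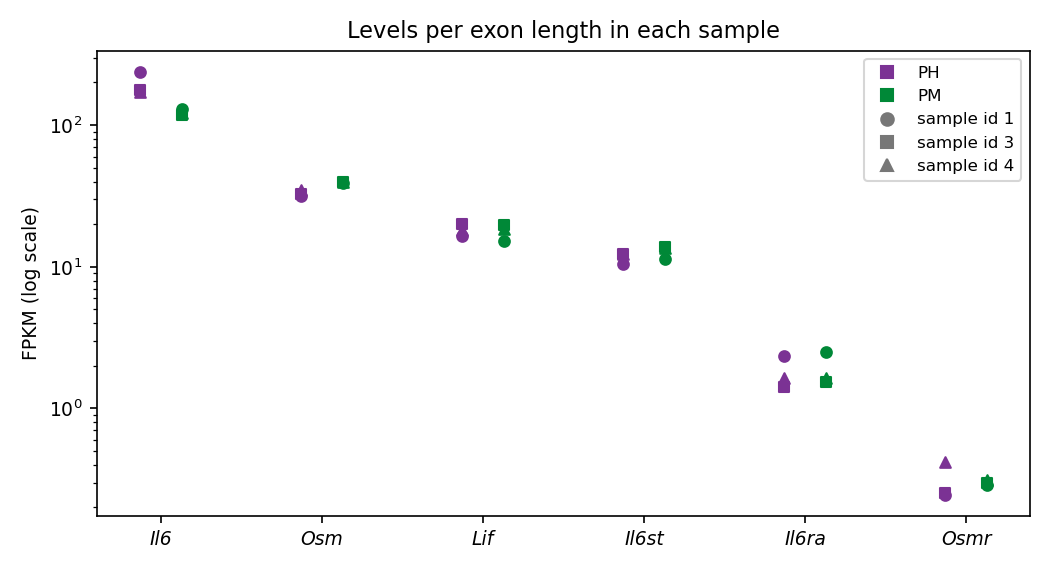
Level per exon length (FPKM, log scale on the y axis) of the 6 members in each sample. Colours give the bacterium and marker shapes the sample id. The ranges of the 6 genes do not overlap, from Il6 at 119 to 238 FPKM down to Osmr at 0.247 to 0.417 FPKM.

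Ratios of counts within a sample do not depend on how libraries are scaled. Il6 had 28.4, 35.2 and 29.6 reads per read of Il6ra in PH samples 1, 3 and 4, and 14.7, 21.8 and 20.6 in PM samples 1, 3 and 4. The mean log2 ratio was 4.95 ± 0.16 with PH and 4.23 ± 0.31 with PM (SD, n = 3), a difference of -0.72 (two-sided exact permutation test, p = 0.1). Il6 to Il6st differed by -0.79 (p = 0.1) and Lif to Osm by -0.29 (p = 0.1), also by exact permutation. For these 3 ratios the groups did not overlap, and 0.1 is the smallest p that 3 against 3 samples allow. Osm to Osmr differed by 0.24 with overlapping groups (exact permutation p = 0.3), and by 0.035 without PH sample 4. Adjusted over the 4 ratios, the p-values were 0.133, 0.133, 0.133 and 0.3, so none passed.

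The genes closest in pattern to a member were found by the root-mean-square difference of centred log2 CPM over the 6 samples, among 9798 genes with a mean of at least 5 CPM. For Il6 these were Rasgrp1, an activator of Ras (0.06), Susd2, a membrane protein gene (0.08), and Marco, a scavenger receptor of macrophages (0.09), against a median of 0.38 over all genes compared. Marco was at 645, 507 and 561 CPM in PH samples 1, 3 and 4 and at 366, 317 and 343 CPM in PM samples 1, 3 and 4. That PH sample 1 was its highest follows from choosing Marco by its likeness to Il6. For Osm they were Man2b2, a lysosomal mannosidase (0.02), Xdh, xanthine dehydrogenase (0.02), and Fam76a (0.03). For Il6st they were Gga2, a Golgi sorting adaptor (0.02), and the lysosomal proteases Lgmn and Scpep1 (0.03 each). The medians for Osm and Il6st were 0.17 each, and such a likeness over 6 samples is a description only.

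Among the 9 other ligands and ligand subunits of the family, 4 were tested and 1 fell with PM. Of all genes tested 2.34% passed, or 15.3% with the block. Of the 4 fold changes, 2 were negative and 2 positive, with a median of -0.31 on the log2 scale against 0.01 over all genes tested. The gene that fell was Ebi3, a subunit that IL-27 shares with other cytokines, at 156, 185 and 164 CPM in PH samples 1, 3 and 4 and at 104, 112 and 101 CPM in PM samples 1, 3 and 4. Its log2 fold change was -0.67 ± 0.08 (SE) with adjusted p = 0.00355 by edgeR, and it passed without any 1 sample (adjusted p up to 0.0268). Gm16712, on the other strand, covers 23.4% of the exon bases of Ebi3. Il27, the p28 subunit that pairs with Ebi3, was at 3.45 to 4.31 CPM with PH and 1.08 to 3.20 CPM with PM, which did not overlap (-1.02 ± 0.34, adjusted p = 0.226). It passed with the block (adjusted p = 2.74e-04) or without PM sample 1 (-1.52, adjusted p = 0.0108). The other 2 tested, named after their values were seen, were Cntf and Clcf1. Cntf, ciliary neurotrophic factor, was at 0.373 to 0.518 CPM with PH and 0.633 to 0.908 CPM with PM, which did not overlap either (0.88 ± 0.30, adjusted p = 0.228, on 99 reads in all). Clcf1, cardiotrophin-like cytokine, had overlapping groups (0.05 ± 0.12, adjusted p = 0.917). Il11 had 11 reads, Ctf1 had 12, and Ctf2 and Il31 had 1 each in all 6 samples together, so no statement on them is possible at this depth.

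Of the 6 other receptor chains, 4 were tested and 0 passed without the block by edgeR (2 had an unadjusted p under the threshold, and 1 passed by DESeq2, Il11ra1), with a median log2 fold change of 0.15. With the block 2 passed (50%, against 15.3% of all genes tested), and these 2 were chosen here after their values were seen. Lifr, the LIF receptor chain, was lower, with 1.38 to 2.36 CPM with PH and 0.955 to 1.23 CPM with PM (-0.70 ± 0.25, adjusted p = 0.262, or 0.0329 with the block). Without PH sample 4 the fold change of Lifr was -0.40 (adjusted p = 0.736), and with the block its call was lost without id 4 (-0.47, adjusted p = 0.496). Il11ra1, the IL-11 receptor chain, was higher, with 23.4 to 25.0 CPM with PH and 28.6 to 37.4 CPM with PM (0.42 ± 0.10, adjusted p = 0.0796, or 1.8e-05 with the block). Per exon length Lifr was at 0.0920 to 0.228 FPKM, below the range of Osmr, and Il11ra1 at 9.34 to 14.9 FPKM. Il27ra, the IL-27 receptor chain, was at 1.14 to 1.6 FPKM and did not pass with either fit (0.18 ± 0.17, adjusted p = 0.725).

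Of the 12 transducers of gp130 signals reported here, 0 passed by edgeR without the block, and 0 had an unadjusted p under the threshold or passed by DESeq2. Their median log2 fold change was -0.03. Jak1, the kinase bound to gp130 (-0.02 ± 0.06 SE, adjusted p = 0.935), and Stat3, the factor it mainly activates (-0.11 ± 0.08, adjusted p = 0.652), did not pass. Stat3 was at 514 to 581 CPM with PH and 475 to 551 CPM with PM, and the groups overlapped. With the block 2 of the 12 fell (16.7%, near the 15.3% of all genes tested), Jak2 (-0.15) and Stat5a (-0.16). Both were named after their values were seen.

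Of 8 genes of feedback and receptor shedding, 1 fell and 0 rose, with a median of -0.12. This was Erap1, an aminopeptidase that trims peptides for MHC class I and was reported to take part in receptor shedding (-0.35 ± 0.07 SE, adjusted p = 0.0369 by edgeR). Its call was lost without any sample but PM sample 1 (adjusted p 0.0633 to 0.147) and with library totals in place of TMM (0.0741). Cast, on the other strand, covers 14.8% of the exon bases of Erap1. Socs3, the feedback inhibitor of gp130, was at 540, 396 and 429 CPM in PH samples 1, 3 and 4 and at 433, 265 and 265 CPM in PM samples 1, 3 and 4. PM sample 1 lay inside the range of the PH samples, and the log2 fold change was -0.50 ± 0.20 (adjusted p = 0.311). Socs3 passed with the block (adjusted p = 4.47e-08) and without PM sample 1 (-0.79, adjusted p = 0.0153). With the block 3 genes of this list fell, Erap1, Socs3 and Socs1 (-0.30), and without PM sample 1 the count was 3 as well. The share of the list was 12.5% without the block and 37.5% with it, against 2.34% and 15.3% of all genes tested. Adam17, a protease that sheds Il6ra, did not pass with either fit (-0.08 ± 0.10, adjusted p = 0.821).

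Of 16 genes taken as STAT3 targets, 1 fell and 0 rose, with a median of -0.06. With the block 5 fell and 2 rose. These counts are 6.25% and 43.8% of the list, against 2.34% and 15.3% of all genes tested. The gene that passed without the block was Il10, an anti-inflammatory cytokine gene (-0.63 ± 0.12 SE, adjusted p = 0.0268 by edgeR), and its call held without PH sample 1 only (adjusted p 0.0579 to 0.122 without each of the other samples). The others that fell with the block were Socs3, Icam1 (-0.31), Timp1 (-0.34) and Il4ra (-0.15), and Cebpb (0.21) and Vegfa (0.26) rose. The list count was 0 without PH sample 3, PH sample 4, PM sample 3 or PM sample 4.

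Among 11 transcription factor genes known to act on Il6, 2 fell and 0 rose by edgeR without the block, with a median of -0.04, while by DESeq2, and by edgeR with no filter on low counts, 2 fell and 1 rose. Nfkbiz, an NF-kB cofactor needed for Il6 induction, was at 124 to 140 CPM with PH and 98.3 to 110 CPM with PM (-0.35 ± 0.07 SE, adjusted p = 0.0385 by edgeR), and Irf1 changed by -0.54 ± 0.09 (adjusted p = 0.0190). Nfkbiz lost its call without any sample but PM sample 1 (adjusted p 0.0814 to 0.190), and Irf1 without PH sample 3 (0.0671) or PM sample 4 (0.106). Gm17334, on the other strand, covers 18.5% of the exon bases of Irf1. Cebpb, which encodes a factor that binds C/EBP motifs, was at 164 to 171 CPM with PH and 180 to 216 CPM with PM (0.21 ± 0.08, adjusted p = 0.262, or 0.00358 with the block). With the block 4 fell, the others being Jun (-0.22) and Nfkb2 (-0.14), and 2 rose, Cebpb and Fos (0.78). The list passed at 18.2% by edgeR without the block and 54.5% with it, against 2.34% and 15.3% of all genes tested. Fos, an AP-1 subunit, had the largest fold change of the list, with 15.2 to 24.1 CPM with PH and 25.4 to 36.5 CPM with PM (0.76 ± 0.19, adjusted p = 0.0879 by edgeR without the block, 0.00378 by DESeq2 and 4.22e-05 with no filter), and was named after its values were seen. The count without 1 sample was 0 without PH sample 3 or PM sample 4, 1 without PH sample 1, PH sample 4 or PM sample 3, and 3 without PM sample 1.

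Of 8 genes that act on the stability of Il6 mRNA, 0 passed by edgeR without the block (2 had an unadjusted p under the threshold, and 1 passed by DESeq2, Zfp36l1), with a median of 0.03. Zc3h12a, the RNase Regnase-1 that degrades Il6 mRNA, was at 141 to 183 CPM with PH and 150 to 191 CPM with PM (0.03 ± 0.12, adjusted p = 0.952). With the block 2 rose, Zfp36 (0.18 ± 0.06 without the block), which encodes tristetraprolin, and its relative Zfp36l1 (0.32 ± 0.09). This is 25% of the list, against 15.3% of all genes tested. Exons of Zfp36l1 overlap Gm26669 over 55.9% of their bases. Zfp36l1 passed without PM sample 1 as well (adjusted p = 0.0267).

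**Figure D4:**
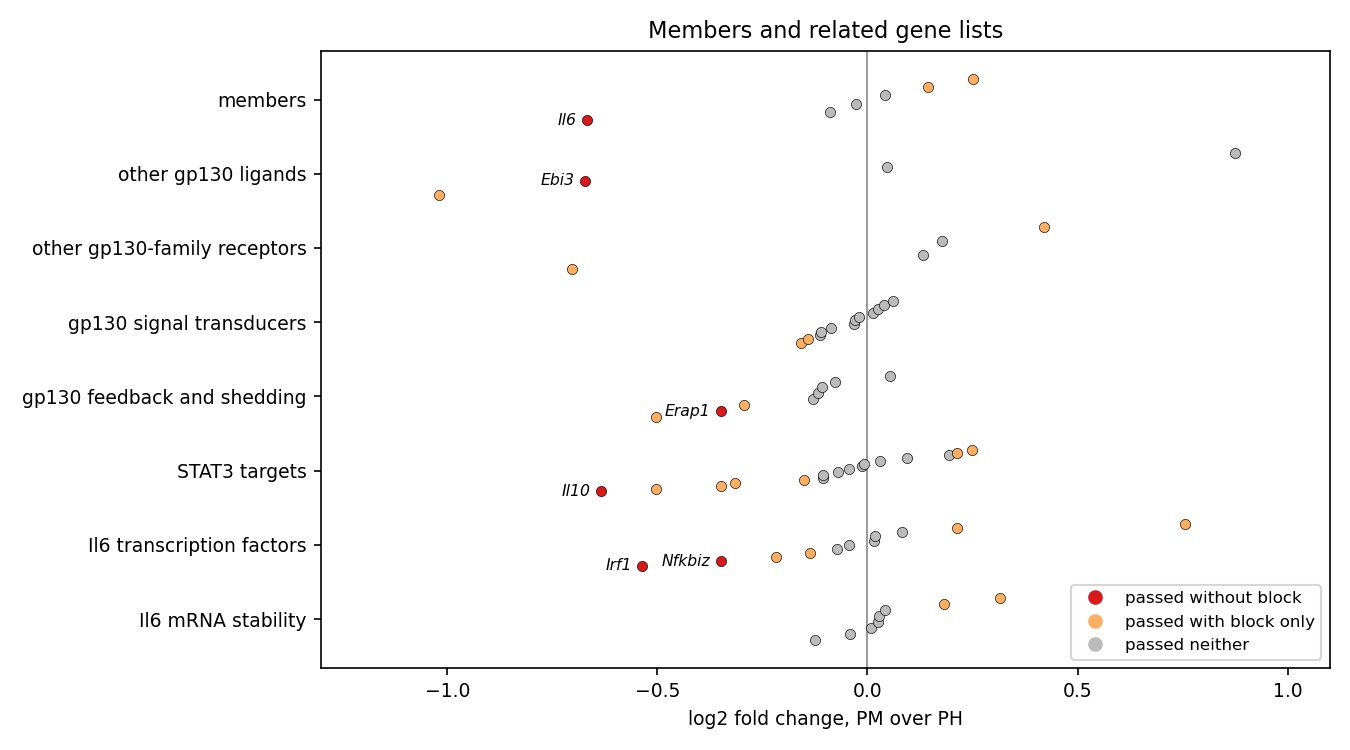
Log2 fold change of PM over PH (x axis) of every tested gene of the members and of 7 related lists (y axis), 1 point per gene. Red points passed without the block and are named, orange points passed with the block only, and grey points passed with neither. In each list with a gene that passed by edgeR without the block, that gene was lower with PM, from Erap1 and Nfkbiz at -0.35 to Ebi3 at -0.67. Of all genes tested 1.64% passed as lower and 0.702% as higher. By DESeq2, also without the block, Fos, Il11ra1 and Zfp36l1 passed as higher.

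Some markers of other cell types differed between the bacteria, beside Il6. Of all genes tested 2.34% passed without the block and 15.3% with it. Of 6 NK cell markers 3 were tested and 1 fell, Gzmb (with the block also Gzma). Klrk1, the other marker tested, had overlapping groups, at 6.39 to 7.59 CPM with PH and 6.83 to 7.31 CPM with PM. It passed with neither fit (0.03, adjusted p = 0.998 by edgeR without the block). The summed level of the 6 markers was 26.4 to 31.6 CPM with PH and 17.9 to 20.4 CPM with PM. Ncr1, Klrb1c and Prf1 had 12, 33 and 45 reads in all 6 samples. Of 7 neutrophil markers tested 1 fell, Csf3r (with the block also S100a8 and S100a9), with summed levels of 434 to 531 CPM with PH and 321 to 446 CPM with PM, which overlapped. In the same list Elane was at 1.07 to 1.23 CPM with PH and 1.4 to 2.03 CPM with PM (0.59 ± 0.22, adjusted p = 0.299), and Mpo had overlapping groups (0.18 ± 0.18, adjusted p = 0.746). Of 8 stromal markers 1 fell, Pdgfrb, with sums of 81.2 to 170 CPM and 90.2 to 152 CPM, which overlapped. The other stromal markers passed with neither fit. Col3a1 (0.19) and Lum (0.11) had positive fold changes, and Col1a1, Col1a2, Pdgfra, Cxcl12 and Dcn were at -0.12 to -0.03. None of these 3 lists had a marker at 0 in all samples, and their part in the level of Il6 was not tested.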

How the data were processed

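The measurement is RNA-seq of stimulated mouse dendritic cells. The authors deposited 1 table of raw read counts per gene with exon length and coordinates. Reads were processed with Trimmomatic, STAR 2.5.3a and featureCounts 1.6.4 on GRCm38, per the submitters' processing notes. The sources used here give no annotation release or strand setting, and do not say whether a column that matches 2 libraries is a sum. Therefore reads of overlapping genes cannot be told apart.

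The counts were fitted without a block in edgeR 4.0.16 (R 4.3.3), with TMM scaling, filterByExpr at a minimum count of 10, glmQLFit with robust estimation and glmQLFTest, and Benjamini-Hochberg adjustment over the 14382 genes tested. Intervals use the fit's standard errors. The sample id was taken to pair samples because the deviations of same-id samples from their group means correlated (0.44, 0.32 and 0.24 for ids 1, 3 and 4, against -0.35 to 0.07 for other pairs), and a fit with the id as a block is given where it changes a call. Alternatives were DESeq2 1.42.0, other scalings and filters, and leaving out samples. The scripts were tested on simulated data. Ratios were compared by two-sided exact permutation tests. The named genes are the 6 members, for each list the genes that passed and set pathway genes, and the 3 genes closest in pattern to a member that passed in either fit. Genes that passed only with the block, and the ratios, were chosen after values were seen. The members and lists were chosen with earlier results of these data known. Promoter letters are from RefSeq on GRCm38.p6. A result for 1 gene of the list of gp130 signal transducers is not reported here, and the counts and median of that list leave it out.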

Additional observations from a re-analysis of the deposited data

How the results depend on the processing

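The direction of Il6, Osm and Il6st was the same under every alternative run. Without 1 sample, log2 fold changes were -0.75 to -0.51 for Il6, -0.20 to 0.27 for Il6ra, 0.064 to 0.215 for Il6st, -0.11 to 0.066 for Lif, -0.26 to 0.27 for Osmr, -0.19 to 0.0097 for Adam17 and -0.10 to 0.12 for Zc3h12a. The difference in the log2 ratio of Osm to Osmr was 0.035 to 0.349. Counts of genes that passed without 1 sample were 142 to 417 over all genes, 1 to 2 other ligands, 0 to 3 feedback genes, 0 to 1 STAT3 target, 0 to 3 transcription factors and 0 to 1 stability gene. Apart from fewer samples, the cause of these changes was not tested.

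With the replicate block 2197 genes passed (15.3% of those tested) in place of 337 (2.34%), and all 337 were among them. Those passing were 2 other ligands, 2 other receptors, 2 transducers, 3 feedback genes, 7 STAT3 targets, 6 transcription factors and 2 stability genes, with Osm at 0.25 and Il6st at 0.14. The block changed no other call of a member. With the block and without id 1, 3 or 4, the genes passing were 2145, 1580 and 1529, and Osm was at 0.21, 0.23 and 0.29. The lists then counted, in the same order of ids, 2, 2 and 2 other ligands, 2, 2 and 1 other receptors, 1, 0 and 2 transducers, 4, 3 and 3 feedback genes, 8, 4 and 6 STAT3 targets, 6, 4 and 4 transcription factors and 3, 1 and 2 stability genes. Il6st was at 0.14 without id 1, Osmr at 0.23 without id 4, Jak1 at 0.00021 without id 1, and Zc3h12a at -0.0035 without id 1 and -0.0071 without id 3.

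With no filter on low counts 846 genes passed, with Osm at 0.26, 2 other ligands, 1 other receptor, 2 feedback genes, 3 STAT3 targets and 1 stability gene. DESeq2 passed 580 genes, among them 1 other receptor, 2 STAT3 targets and 1 stability gene. With library totals alone 0 feedback genes passed and Jak1 was at 0.0055. Without the columns that match 2 libraries, an alternative chosen after seeing the data, 629 genes passed, with 2 other ligands, 3 feedback genes and 1 stability gene. Il6 then kept its call (-0.78, adjusted p = 0.0366), Il6ra was at -0.32, Lif at 0.13, Stat5a at 0.017 and Zc3h12a at -0.18. Osmr rests on 16 to 92 reads per sample and Lifr on 254 reads in all.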
